A study of Mus musculus with 21 samples.

Results

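The RNA levels of 10 genes of the blood vessel lining, Pecam1, Cdh5, Kdr, Flt1, Tek, Tie1, Eng, Vwf, Emcn and Esam, were followed in the mouse uterus at 3 stages of life. The genes were taken by name as markers of blood endothelial cells, with no threshold on a measured value, though with earlier results of these data known. All 10 were found among the 12791 genes listed, none of which fell under 10 reads in any library, and no member was lost to a filter on low values. Whole uteri of C57BL/6J females carrying no engineered allele (wild type) were used, with 7 libraries from mice of 5 weeks, 7 from mice of 8 weeks and 6 from aged mice. All animals, young ones included, had been given pregnant mare serum gonadotropin (PMSG), a hormone that stimulates the ovarian follicles, at 5 or 7.5 units and were dissected after 48 hours; the labels do not tie a dose to a mouse. The labels split each age group into an earlier set, replicates 1 and 2, whose aged mice were 60 to 75 weeks old, and a later set, replicates 3 to 7, whose aged mice were 79 weeks old. Nothing in the labels says that each library came from its own animal, so p-values measure the spread between libraries.

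Endothelial cells line all blood vessels and hold the wall together through junction proteins such as those made by Cdh5, Pecam1 and Esam. Vascular endothelial growth factor (VEGF) drives their growth through the receptor kinase made by Kdr, while Flt1 binds the same ligand and can act as a decoy for it. The angiopoietins act on the receptor kinase made by Tek, whose partner is Tie1. Signalling by Tek helps to keep formed vessels stable, and not every angiopoietin acts in the same direction on it. The vessels of the uterus are rebuilt with each oestrous cycle and during pregnancy.

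Promoter sequences were found in the RefSeq table (GRCm38.p6) for 6 of the 10 genes, Eng, Emcn, Tek, Tie1, Kdr and Flt1. The 4 shown are those of Tek and Kdr, which varied closely with the other members from library to library, and of Flt1 and Emcn, which did so least among the genes with an entry. Tie1 varied more closely than Kdr (r 0.92 and 0.88) but is not shown, nor is Eng. Each run is 150 bases long, 5′ to 3′ on the strand of the gene, and spans positions 170 to 21 before the RefSeq start. Capitals mark AGGAAG or its reverse complement CTTCCT, letters that ETS factors, a family of endothelial regulators, can bind.
Tek, chr4:94739119-94739268, plus strand: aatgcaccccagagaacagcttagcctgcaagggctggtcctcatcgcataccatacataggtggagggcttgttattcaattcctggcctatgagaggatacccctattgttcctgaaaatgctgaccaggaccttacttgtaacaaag
Kdr, chr5:75978476-75978625, minus strand: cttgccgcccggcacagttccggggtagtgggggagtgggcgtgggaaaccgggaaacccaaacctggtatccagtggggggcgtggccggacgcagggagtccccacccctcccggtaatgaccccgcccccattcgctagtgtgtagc
Flt1, chr5:147726032-147726181, minus strand: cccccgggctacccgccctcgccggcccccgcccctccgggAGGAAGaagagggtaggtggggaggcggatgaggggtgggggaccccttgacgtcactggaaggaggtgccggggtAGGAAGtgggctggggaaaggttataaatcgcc
Emcn, chr3:137340908-137341057, plus strand: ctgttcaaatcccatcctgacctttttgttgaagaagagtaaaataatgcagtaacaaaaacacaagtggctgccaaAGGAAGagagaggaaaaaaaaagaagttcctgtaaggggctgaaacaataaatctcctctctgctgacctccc
Within the 250 bases before the start, AGGAAG was present on either strand in 4 of the 6 promoters (Eng, Emcn, Tie1 and Flt1) and in 29.5% of all 32851 promoters. The longer form CAGGAAG, which contains AGGAAG, was found in Emcn and in 10.8% of all promoters. TATAAA, searched on both strands, was found in Flt1 and in 12.4% of all promoters, while AACAATG was in none of the 6 and in 3.29% of all. The matches describe these windows and these letters only, so a run without capitals may still hold other binding sites.

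Libraries held 12204573 to 14448283 reads in the earlier set (6 libraries) and 19100690 to 30689439 in the later set (14 libraries). The sets stood apart: principal component 1, with 48.2% of the variance over all genes, separated them. The 5- and 8-week libraries, of the same ages in both sets, lay at -91.9 to -79.6 in the earlier and -15.6 to 63.9 in the later set. Read depth, instrument and RNA kit cannot be told apart within the set difference, nor can read layout, which no label ties to a library. In aged libraries the age of the mice cannot be told apart from these either. The cause was not tested. The column header of 15 of 20 files names another sample than the one the file is attached to, for 2 columns a sample of another age group (5w replicate 3 and 8w replicate 3) and for 2 a sample of the other set. Columns were taken as their headers name them, and age results are given without these columns below. The 2 columns of the other set, headed aged replicate 2 and aged replicate 5, held 12440146 and 19249393 reads and lay at -69.6 and 54.0 on component 1. Both values placed each column with the set its header names, not with that of its file. Aged replicate 3 has no column and was not analysed here.

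**Figure D1:**
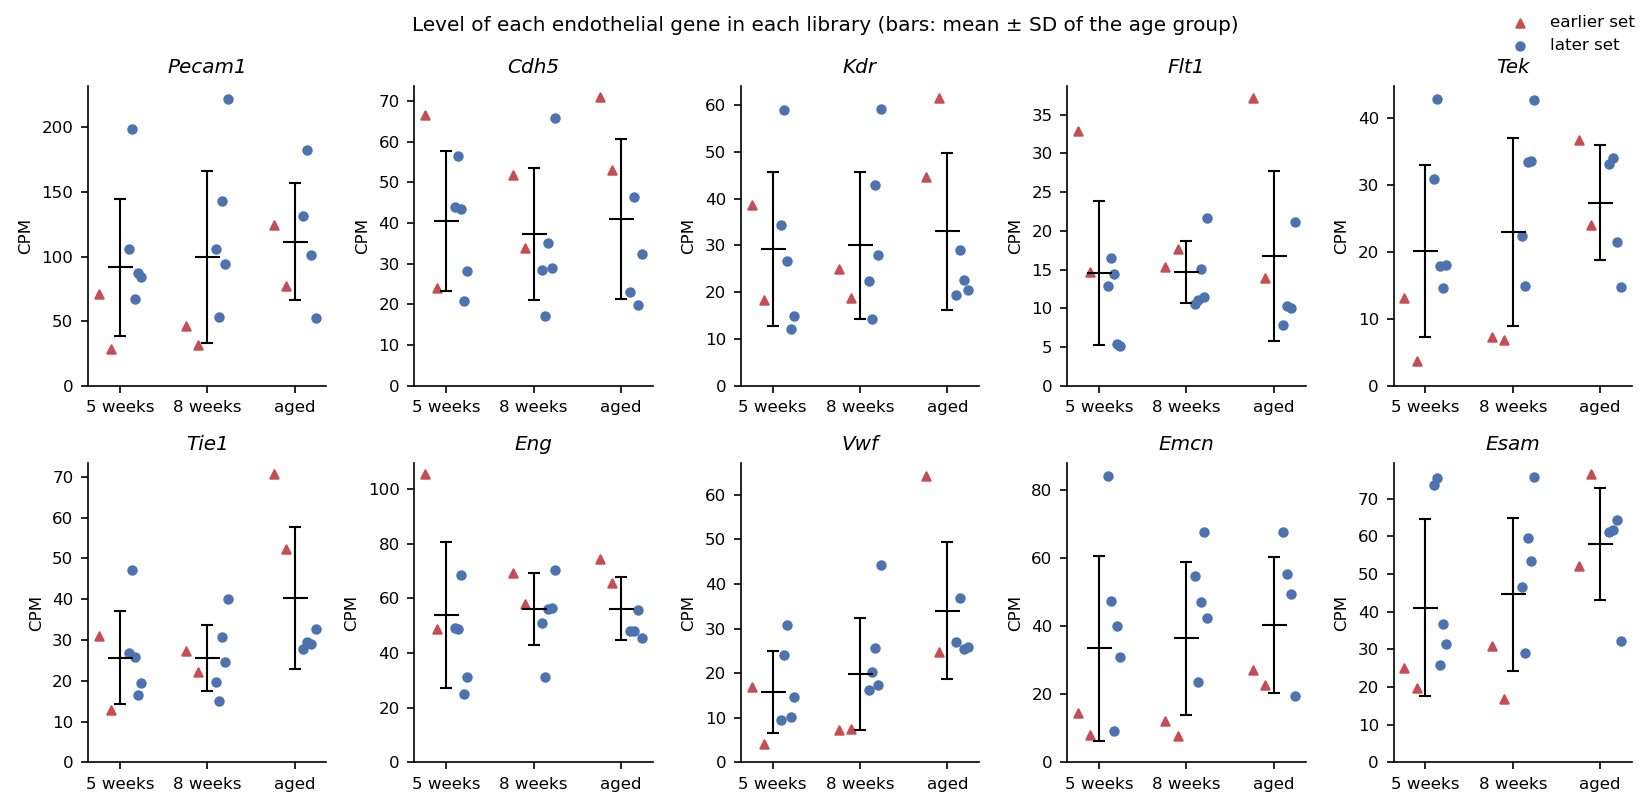
Level of each endothelial gene in CPM, the read count scaled to a common library total (vertical axis, linear, from 0) in each of the 20 libraries, by age group; triangles are the earlier set, circles the later set, and bars the mean ± SD of the age group. The age groups overlap for all 10 genes, and Vwf in aged libraries runs from 24.8 to 64.2 CPM against 4.19 to 30.8 CPM at 5 weeks.

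Levels are in CPM, the read count of a gene scaled to a common library total. All 10 genes were measured well above the lowest listed value, the fewest reads being 48 for Tek in 1 library. Levels between genes are compared per kilobase of exon. On that scale Esam (16.5 CPM per kb, mean of 20 libraries) and Pecam1 (16.1) were highest, followed by Eng (13.7), Cdh5 (9.40), Emcn (6.77), Tie1 (6.11), Tek (4.96) and Kdr (3.39). Vwf (1.41) and Flt1 (1.13), the members with the longest exon sequence, were lowest. Esam and Pecam1 stood above 74.7% and 74.2% of all genes, and Flt1 above 7.43%. The order was not tested. Neighbours such as Esam and Pecam1, or Emcn and Tie1, differed far less than their spread over libraries, with coefficients of variation from 32.2% for Eng to 62.4% for Vwf.

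Few of the endothelial genes passed the test between ages. Between aged and 8-week uteri 0 of 10 members passed the test (limma, adjusted p under 0.05 over all genes), where 17.2% of all genes did; 2 members, Vwf and Tie1, had an unadjusted p under 0.05, as had 32.1% of all genes. Between aged and 5-week uteri 1 of 10 passed, Vwf, against 22.1% of all genes. Between 8 and 5 weeks 0 of 10 passed, as did 0% of all genes, and no member had an unadjusted p under 0.05, beside 1.09% of all genes. The median log2 difference of the members was 0.38 for aged versus 8 weeks and 0.50 for aged versus 5 weeks, beside 0.050 and 0.087 over all genes, and 8 and 9 of the 10 were positive. In no member did all aged libraries lie above all 8-week or all 5-week libraries, a separation that 0.946% and 1.65% of all genes had. The comparisons with 8 and with 5 weeks share the aged libraries. In whole tissue, more endothelial cells and more RNA per cell cannot be told apart.

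Von Willebrand factor, made by Vwf (chr6:125546774-125686679, plus strand), is stored in endothelial cells and platelets and tethers platelets to a damaged vessel wall. Its level was 4.19, 14.7 and 30.8 CPM (lowest, median and highest of 7) at 5 weeks. At 8 weeks it was 7.37, 17.5 and 44.1 CPM over 7 libraries. In the 6 aged libraries it was 24.8, 26.5 and 64.2 CPM. Each aged library was above the median of either younger group, but the groups overlapped, since 5w replicate 5 reached 30.8 CPM and 8w replicate 7 reached 44.1 CPM. Vwf rose by a log2 difference of 1.21 ± 0.38 (SE) in aged versus 5-week uteri, a 2.31-fold change on the scale of CPM + 1 (95% interval 1.33 to 4.00, adjusted p = 0.0282, limma). Against 8 weeks the difference was 0.91 ± 0.38 (adjusted p = 0.103). The call against 5 weeks was lost without aged replicate 1 (0.90, adjusted p = 0.0826), aged replicate 2 (1.19, 0.0542), 5w replicate 2 (1.00, 0.0754) or 5w replicate 6 (1.11, 0.0553). It was also lost without the 2 columns whose files belong to another age (1.10, adjusted p = 0.0566), without these and the 2 of the other set (1.07, adjusted p = 0.123) and, with columns attached by file, at 0.84 (adjusted p = 0.191). Without the set term it was 1.18 (adjusted p = 0.0727), in the later set alone 0.78 (0.221) and in the earlier set alone 2.09 (0.0634), none of which passed. Platelet markers bear on Vwf because platelets carry it: 7 of the 10 listed, Ppbp and the Gp1b subunit genes among them, were not among the genes listed. The sum of the other 3 (Pf4, Itga2b and Itgb3) was 53.3 to 124 CPM at 5 weeks and 48.1 to 99.8 CPM in aged uteri. The sum hides differences of both signs, from -0.44 to 0.47 against 5 weeks and from -0.81 to 0.79 against 8 weeks, where Itga2b passed as higher. Itgb3 also varied with the endothelial genes from library to library (r 0.67). The part of platelets in the Vwf level was not tested.

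Neither VEGF receptor passed the test in an age comparison. Kdr (chr5:75932827-75978458, minus strand), the main signalling receptor, was at 12.3, 26.7 and 59.0 CPM (lowest, median, highest) at 5 weeks. It was at 14.4, 24.9 and 59.2 CPM at 8 weeks and at 19.4, 25.9 and 61.6 CPM in aged uteri. The 3 groups covered nearly the same range, and the log2 difference of aged versus 8 weeks was 0.13 (95% interval -0.64 to 0.90). Flt1 (chr5:147561604-147726011, minus strand), the decoy-capable receptor, was at 5.11, 14.5 and 32.9 CPM at 5 weeks. It was at 10.6, 15.1 and 21.6 CPM at 8 weeks and at 7.88, 12.1 and 37.1 CPM in aged uteri. The highest values, in 5w replicate 1 and aged replicate 1, both belong to the earlier set, and the difference of aged versus 8 weeks was -0.012 (-0.68 to 0.65).

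The angiopoietin receptors had positive differences in aged uteri but did not pass the test. Tek (chr4:94739289-94874976, plus strand), the receptor itself, was at 3.73, 17.9 and 42.9 CPM at 5 weeks, 6.84, 22.4 and 42.7 CPM at 8 weeks and 14.8, 28.6 and 36.8 CPM in aged uteri. The aged libraries lay inside the range of both younger groups, and the log2 difference was 0.50 ± 0.38 against 8 weeks and 0.67 ± 0.38 against 5 weeks (adjusted p = 0.390 and 0.209). Tie1 (chr4:118471191-118490061, minus strand), its partner, was at 12.7, 25.9 and 47.1 CPM at 5 weeks, 15.0, 24.6 and 40.0 CPM at 8 weeks and 27.9, 31.0 and 70.6 CPM in aged uteri. Each aged library was above the median of either younger group, with the 2 highest values, 52.3 and 70.6 CPM, in the earlier set. The differences were 0.59 ± 0.28 (adjusted p = 0.155) and 0.64 ± 0.28 (adjusted p = 0.109), and the second passed without 5w replicate 4 (0.81, adjusted p = 0.0372).

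None of Esam, Pecam1 and Cdh5, the members found at cell junctions, passed the test. Esam (chr9:37528078-37538319, plus strand), an adhesion molecule of tight junctions, was at 19.6, 31.3 and 75.6 CPM at 5 weeks, 16.8, 46.5 and 75.9 CPM at 8 weeks and 32.2, 61.4 and 76.6 CPM in aged uteri. The groups overlapped over most of their range, and the log2 difference was 0.50 ± 0.31 against 8 weeks (adjusted p = 0.279) and 0.65 ± 0.31 against 5 weeks (adjusted p = 0.138). The latter passed without aged replicate 7 (0.86, adjusted p = 0.0491). Pecam1 (chr11:106654217-106750628, minus strand), the adhesion molecule CD31, was at 28.6, 84.2 and 199 CPM at 5 weeks, 31.7, 93.9 and 222 CPM at 8 weeks and 52.7, 113 and 182 CPM in aged uteri. Its aged libraries lay inside both younger ranges, at a difference of 0.38 ± 0.36 and 0.41 ± 0.36. Cdh5 (chr8:104101625-104144511, plus strand), the cadherin of adherens junctions, was at 20.9, 43.4 and 66.5 CPM at 5 weeks, 17.2, 33.9 and 65.7 CPM at 8 weeks and 19.8, 39.4 and 71.0 CPM in aged uteri. Its differences, 0.080 and -0.036, were small beside their SE of 0.31.

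Eng and Emcn likewise did not pass. Eng (chr2:32646595-32682669, plus strand), a co-receptor for bone morphogenetic proteins (BMPs), was at 25.01, 48.8 and 106 CPM at 5 weeks, 31.3, 56.5 and 70.5 CPM at 8 weeks and 45.6, 51.9 and 74.5 CPM in aged uteri. It varied least of the 10 genes, and the aged versus 8-week difference of -0.0064 had a 95% interval of -0.48 to 0.46. Of its exon sequence 1.51% lies opposite an exon of Fpgs, and the kit does not mark strand. Emcn (chr3:137341067-137432185, plus strand), a surface sialoprotein of capillaries and veins, was at 8.00, 31.0 and 84.3 CPM at 5 weeks, 7.89, 42.4 and 67.8 CPM at 8 weeks and 19.5, 38.3 and 67.8 CPM in aged uteri. Its range was wide in every group, and the differences were 0.38 ± 0.40 and 0.60 ± 0.40.

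**Figure D2:**
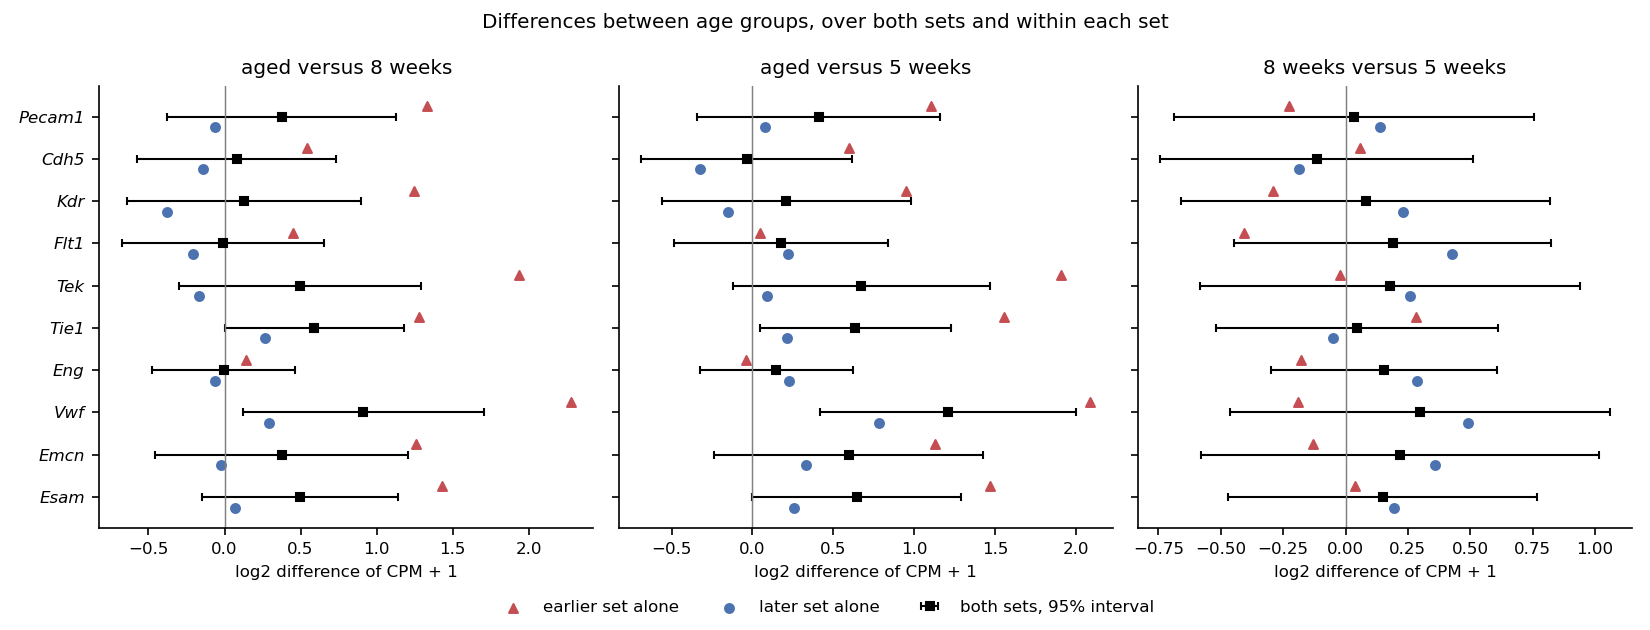
Log2 difference of CPM + 1 for each endothelial gene (horizontal axis) between age groups; squares with 95% intervals are fitted over both sets, triangles and circles within the earlier and later set alone. For aged versus 8 weeks the 10 triangles lie between 0.14 and 2.28, and the circles between -0.38 and 0.29.

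The age comparisons were also fitted in each set of libraries alone, and the difference between sets, tested further on, passed for no member. In the earlier set (2 libraries per age) all 10 members were higher in aged than in 8-week uteri, with a median log2 difference of 1.27, and 4 passed, Vwf (2.28), Tek (1.93), Esam (1.43) and Emcn (1.26); 28.2% of all genes passed in that set. Of the 10, 8 had both aged libraries above both 8-week libraries, as did 36.8% of all genes. In the later set (4 aged and 5 8-week libraries) 3 members were positive, the median was -0.062 and 0 passed, with 1.43% of all genes called, 0 members at an unadjusted p under 0.05 (14.5% of all genes) and 0 members free of overlap upward (2.07% of all genes). Against 5 weeks, Tek (1.91), Tie1 (1.56) and Esam (1.47) passed in the earlier set (20.4% of all genes) and 0 members in the later set (4.09%), where Vwf alone had an unadjusted p under 0.05, as had 20.6% of all genes. In that comparison 7 members had both aged libraries of the earlier set above both 5-week libraries, beside 38.7% of all genes, and 0 in the later set, beside 3.07%.

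Tek and Vwf had the 2 largest estimates of that difference for aged versus 8 weeks. Tek in the earlier set was at 36.8 and 24.1 CPM in aged, 7.29 and 6.84 CPM in 8-week and 13.2 and 3.73 CPM in 5-week uteri. In the later set it was at 33.2, 34.0, 21.4 and 14.8 CPM in aged uteri, inside the 8-week range of 14.9 to 42.7 CPM. The aged libraries of the sets overlapped, while the younger libraries of the earlier set were lower than any of the later set. Vwf in the earlier set was at 64.2 and 24.8 CPM in aged, 7.37 and 7.57 CPM in 8-week and 16.96 and 4.19 CPM in 5-week uteri. The later set had it at 27.0, 36.8, 25.5 and 26.0 CPM in aged uteri and between 16.1 and 44.1 CPM at 8 weeks. Here, too, the 8-week libraries of the earlier set were lower than those of the later set.

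The difference between the sets was itself tested. For aged versus 8 weeks it was negative (smaller in the later set) for all 10 members, from -2.10 ± 0.68 for Tek and -1.99 ± 0.73 for Vwf to -0.20 ± 0.50 for Eng. None passed (lowest adjusted p = 0.171, for Tek), where 0.0235% of all genes did, and 4 members (Tek, Vwf, Esam and Kdr) had an unadjusted p under 0.05, as had 14.5% of all genes. With columns attached by file, the differences of Tek (adjusted p = 0.0322) and Vwf (0.0290) passed. In that setting 1086 of all 12791 genes passed, beside 3 with columns taken by header. Attaching by file moves aged replicate 2 to the later and aged replicate 5 to the earlier set, although read totals and component 1 placed both with the set in their headers. For aged versus 5 weeks the median was -1.06, 0 of 10 passed, as did 0% of all genes, and Tek and Tie1 had an unadjusted p under 0.05, as had 8.44% of all genes. In the earlier set the summed markers of all 8 other cell types compared also separated aged from 8-week libraries, without a test. With 2 libraries per age, 68.5% of all genes did so in either direction. The sum of 11 smooth muscle markers was 1863 to 2895 CPM at 8 weeks and 4060 to 19278 CPM in aged uteri, that of 9 stromal markers 1690 to 3143 and 5031 to 5264 CPM, and that of 10 lymphatic markers 427 to 581 and 1454 to 1933 CPM. Macrophage markers (12 genes) summed to 509.5 to 997 and 1415 to 1910 CPM, red blood cell markers (4 genes) to 16.1 to 18.3 and 161 to 281 CPM, and mural markers (8 genes) to 149 to 189 and 199.8 to 526.02 CPM. Lower in aged uteri were the sums of 10 epithelial markers, 5134 to 7334 and 4023 to 4249 CPM, and of 3 platelet markers, 83.6 to 125 and 69.6 to 79.2 CPM. In the later set the 8-week and aged ranges of all 8 sums overlapped, smooth muscle for example at 15742 to 22065 and 3219 to 29551 CPM. There 5.23% of all genes were free of overlap in either direction. The part of these cell types in the differences of the endothelial genes was not tested.

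With age in the fit, single endothelial genes also differed in level between the sets, and not in 1 direction. Emcn was higher in the later set by a log2 difference of 1.51 ± 0.35 (adjusted p = 0.00114, limma), Tek by 1.07 ± 0.33 (0.0102) and Pecam1 by 0.94 ± 0.32 (0.0153), while Flt1 was lower (-0.76 ± 0.28, 0.0243) and Eng was lower (-0.52 ± 0.20, 0.0298). The set difference is 1 term over all ages and was not tested at each. In aged uteri Tek was at 24.1 and 36.8 CPM in the earlier and 14.8 to 34.0 CPM in the later set, and Pecam1 at 77.3 and 124 CPM and 52.7 to 182 CPM, so both overlapped there. The calls are 5 of 10 members beside 58.7% of all genes, so the members' share is near the background. In no member did all later libraries lie above or all below the earlier ones, as in 3.68% and 6.72% of all genes. The split over all genes, 2618 higher and 4894 lower with a median of -0.20, turned to 4330 higher and 3497 lower with a median of 0.095 when each library was centred on its median. Under that centring the lower calls of Flt1 (-0.47, adjusted p = 0.111) and Eng (-0.23, 0.236) were lost, and Esam (0.92, 0.00564) and Vwf (0.94, 0.0174) passed. Emcn, at 7.89 to 27.1 CPM in the 6 earlier and 9.34 to 84.3 CPM in the 14 later libraries, passed without each library in turn; the later libraries overlapped the earlier ones because 5w replicate 5 (9.34 CPM) and aged replicate 7 (19.5 CPM) were low. Leaving out 5w replicate 2 (adjusted p = 0.0613) or 8w replicate 2 (0.0568) cost Pecam1 its call, and leaving out 5w replicate 2 that of Tek (0.0503). Flt1 and Eng lost theirs without 5w replicate 1 (0.0978 and 0.134) or aged replicate 1 (0.0828 and 0.0529). Of the genes not called, Cdh5 passed as lower without 5w replicate 2 (0.0273) or 8w replicate 7 (0.0479), and Vwf as higher without aged replicate 1 (0.0123). Esam passed as higher without aged replicate 2 (0.0169), aged replicate 7 (0.0185), 5w replicate 5 (0.0352) or 8w replicate 4 (0.0378). With columns attached by file Emcn alone passed.

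**Figure D3:**
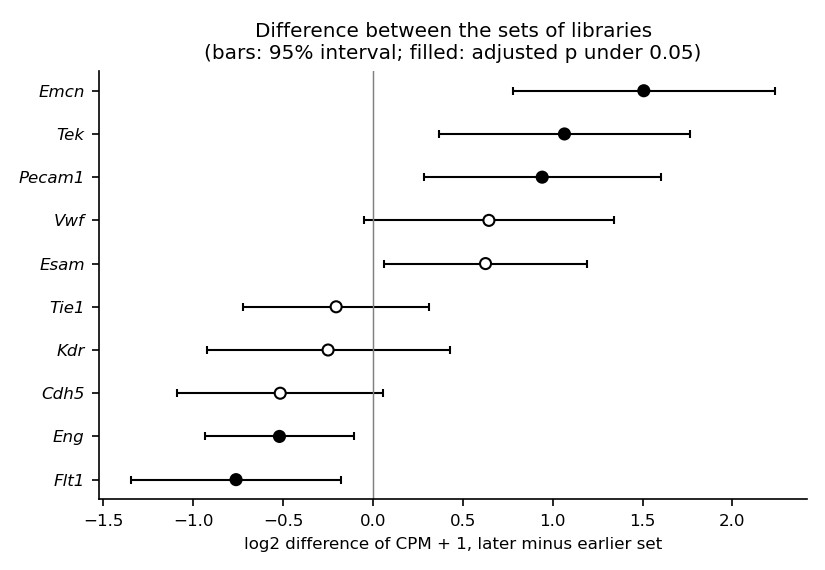
Log2 difference of CPM + 1 between the later and the earlier set for each endothelial gene, with 95% intervals, age group in the fit; filled circles passed at an adjusted p under 0.05. Emcn, at 1.51, and Flt1, at -0.76, lie at the ends.

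Ratios of partner genes within a library do not depend on the library total. The ratio of Flt1 to Kdr, the decoy-capable over the signalling VEGF receptor, had a median of 0.819 in the earlier set (0.226 to 0.944 over 6 libraries) and 0.408 in the later set (0.279 to 1.04 over 14). The ratio of Tie1 to Tek had a median of 2.79 in the earlier set (1.92 to 3.73) and 0.973 in the later set (0.729 to 2.21). The later median of Tie1 to Tek lay below every earlier library, while the Flt1 to Kdr ranges of the sets overlapped over most of their length; these were not tested. With age, the 6 tests of these ratios gave no adjusted p under 0.947 (exact two-sided permutation within sets, Benjamini-Hochberg over 6 tests, smallest p allowed 0.00132 for aged comparisons). The log2 Tie1 to Tek ratio was 0.53 ± 0.64 (SD, n = 6) in aged and 0.39 ± 0.97 (SD, n = 7) in 8-week uteri, and the log2 Flt1 to Kdr ratio -1.06 ± 0.81 and -0.93 ± 0.55. The ratio of Angpt2 to Angpt1 was not analysed here, since Angpt1 is not among the genes listed.

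From library to library the endothelial genes varied together, though not equally. With each gene centred within its age and set, Tek had a Pearson r of 0.93 with the mean of the other 9 members over 20 libraries, Tie1 0.92, Kdr 0.88, Cdh5 0.87 and Pecam1 0.85. Eng (0.74), Esam (0.68), Vwf (0.56) and Flt1 (0.56) followed, and Emcn was least alike at 0.32. Over the 45 pairs r ran from -0.22 (Emcn with Vwf) to 0.90 (Tie1 with Kdr), with a median of 0.67, 34 pairs over 0.5 and 2 below 0. All points share library depth and composition, so these values describe the libraries and carry no test. In 5w replicate 5, for example, Emcn (9.34 CPM) and Esam (25.7 CPM) were the lowest of the 5 later 5-week libraries while Vwf (30.8 CPM) was the highest.

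The 10 other genes most alike to the mean endothelial profile were Csf2rb2 (0.94), Sema7a, Tmem252, Vldlr, Mybpc2, Flna, Thsd1, Cspg4, Arhgef15 and Slc38a1 (0.92). Cspg4 is a pericyte marker and Arhgef15 an exchange factor of endothelial cells. Of the lists compared, endothelial junction genes (median r 0.67 over 31 genes), pericyte and mural markers (0.69 over 8) and smooth muscle markers (0.65 over 11) lay highest, beside 0.19 over all genes. Notch and arterial genes had a median of 0.57, and uterine epithelial markers lay lowest at -0.53 over 10 genes. The 16 endothelial transcription factors had a median of 0.038, with values from -0.44 to 0.86. Lymphatic (-0.088), macrophage (-0.13) and red blood cell markers (0.047) lay near 0 or just below it. Stromal markers (0.39 over 9) also lay above the value of all genes. Libraries with a larger share of endothelial RNA thus tended to have larger shares of mural and smooth muscle markers and smaller shares of most epithelial ones. Of the latter, Foxa2 (0.20) and Cldn4 (0.066) were positive. CPM values share 1 total, so a larger share of some genes lowers that of others. How much of each layer a sample contained was not tested.

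**Figure D4:**
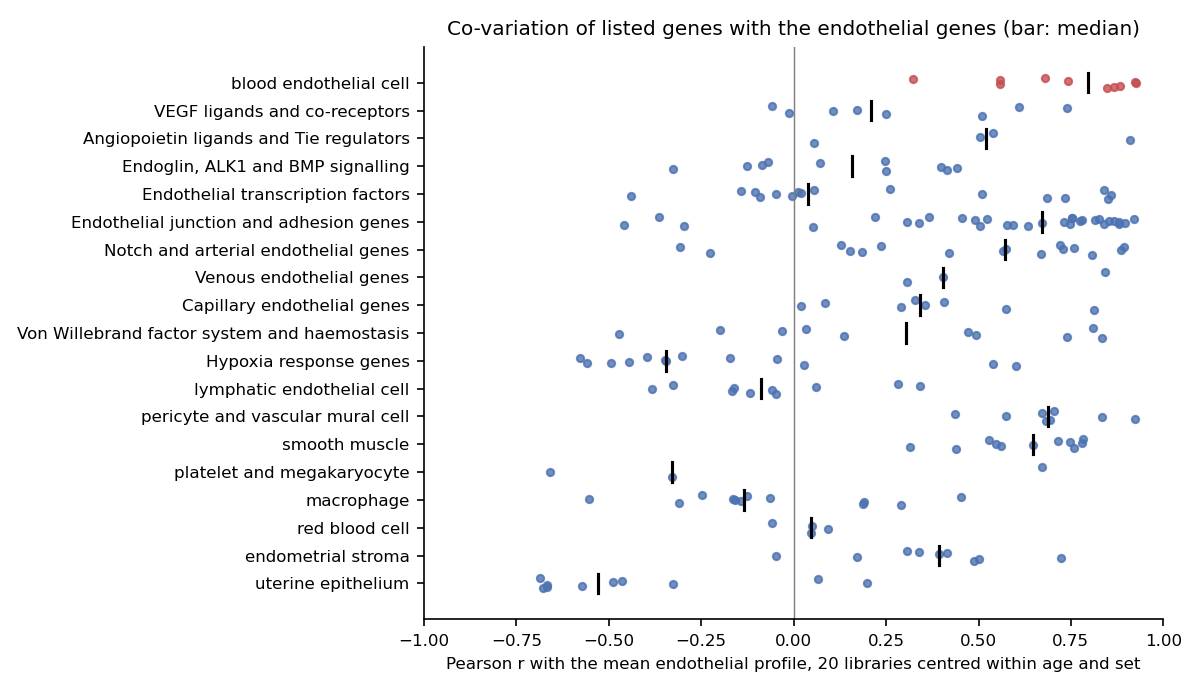
Pearson r of each listed gene with the mean endothelial profile over 20 libraries centred within age and set (horizontal axis), by list; for the endothelial genes themselves (red) r is with the mean of the other 9, and vertical bars are medians. Mural (0.69) and smooth muscle (0.65) markers lie to the right and epithelial markers (-0.53) to the left.

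In the VEGF list, which holds ligands and further receptors, 3 of 8 listed genes were higher in aged than in 8-week uteri and 4 against 5 weeks, with 0 lower, where 8.64% and 12.7% of all genes were higher and 8.53% and 9.41% lower. Vegfb, a ligand of Flt1, was at 17.6, 41.1 and 56.7 CPM (lowest, median, highest) in aged and 10.7, 17.1 and 33.1 CPM in 8-week uteri, and rose by 1.12 ± 0.30 and 1.19 ± 0.30. The others were Vegfc, the ligand of Flt4 (0.85 and 0.85), Flt4, the main VEGF receptor of lymphatic vessels (1.40 and 1.66), and, against 5 weeks, the co-receptor Nrp2 (0.97). Vegfa (-0.20 and 0.44), Vegfd (0.83 and 0.54), Pgf (0.44 and 0.69) and Nrp1 (-0.46 and -0.23) passed in neither comparison. Of 4 angiopoietin and Tie genes 0 passed against 8 weeks, and Angptl4, an inhibitor of lipoprotein lipase, was lower against 5 weeks (-1.09 ± 0.29, adjusted p = 0.0125). Of 10 genes of the endoglin and BMP list only Bmp6, a ligand, passed, higher in both (1.32 and 1.21).

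Of 31 endothelial junction and adhesion genes, 5 were higher and 2 lower in aged than in 8-week uteri, and 6 and 2 against 5 weeks. Of all genes 8.64% were higher and 8.53% lower against 8 weeks, and 12.7% and 9.41% against 5 weeks. Cldn5, the claudin of endothelial tight junctions, was at 25.1, 51.4 and 69.6 CPM in aged, 8.69, 13.6 and 29.2 CPM in 8-week and 4.64, 14.1 and 33.0 CPM in 5-week uteri. It rose by 1.62 ± 0.32 (adjusted p = 0.00218) and 1.80 ± 0.32 (0.000716), and its aged libraries overlapped both younger groups. Icam1, a leukocyte adhesion receptor, rose by 0.86 and 1.02, and Vcam1, another, by 1.13 and 1.20. Cdh2, a cadherin not confined to endothelium, rose by 0.94 and 1.09, and the scavenger receptor gene Stab1 by 0.81 and 0.85. Jam2, a junction molecule, rose against 5 weeks (1.27). Cd34, a sialomucin of endothelial, stromal and blood stem cells, fell by 1.40 and 1.42, and Ramp2, the adrenomedullin receptor partner, by 0.96 and 0.87. Of the Ramp2 exon sequence 33.4% overlaps Vps25, and 11.7% of that of Icam1 a predicted antisense gene, so reads there could be split. Cd34 and Jam2 fall outside the rule for named genes and were added after their values were seen.

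In the other vascular lists counts are read against the 17.2% (aged versus 8 weeks) and 22.1% (versus 5 weeks) of all genes that passed. Cxcl12, a chemokine of arterial endothelium and stroma, rose by 1.46 and 1.52 and its receptor gene Cxcr4 by 1.55 against 5 weeks, out of 16 Notch and arterial genes. Of 16 transcription factors 0 passed against 8 weeks, and Sox17 (1.12), Lyl1 (0.92) and Klf2 (0.90) were higher against 5 weeks. From library to library these 3 did not follow the members, with r of -0.0044, 0.021 and -0.10 with the mean endothelial profile, beside a median of 0.19 over all genes. Of 10 haemostasis genes, Thbd, the thrombin receptor thrombomodulin, rose by 0.71 and 0.70, and Plat, tissue plasminogen activator, by 2.36 against 5 weeks. Of 13 hypoxia genes Ndrg1 rose (0.90 and 0.85). None of 3 venous and 8 capillary genes passed in either comparison.

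Markers of other cells were measured in the same libraries. Their counts are read against the 17.2% (aged versus 8 weeks) and 22.1% (versus 5 weeks) of all genes that passed. Of 10 lymphatic markers 5 were higher in aged than in 8-week uteri (Reln 1.91, Mmrn1 1.49, Flt4 1.40, Lyve1 1.19 and Pdpn 1.16) and 5 against 5 weeks (Ccl21a 2.86, Reln 2.34, Flt4 1.66, Mmrn1 1.53 and Pdpn 1.07), with summed levels of 895 to 1933 CPM in aged, 427 to 1306 CPM in 8-week and 553 to 1025 CPM in 5-week uteri. Flt4 stands in both this and the VEGF list. Of 8 mural markers listed 0 passed, with sums of 189 to 711, 149 to 665 and 109 to 641 CPM. Of 11 smooth muscle markers Smtn (1.28) and Lmod1 (1.36) rose against 5 weeks. Of 12 macrophage markers Csf1r rose in both comparisons (0.95 and 1.15) and C1qa against 5 weeks (1.05), with sums of 959 to 3130 CPM in aged and 510 to 3631 CPM in 8-week uteri. All 4 globin genes listed rose against 8 weeks (Hbb-bs 1.90, Hba-a1 1.68, Hbb-bt 1.59 and Hba-a2 1.58) at sums of 51.8 to 281 CPM beside 16.1 to 63.1 CPM. Against 5 weeks 0 of the 4 passed (0.83 to 1.09), and the 5-week sums were 29.1 to 156 CPM. Near-identical globin copies may share reads. Among 3 platelet genes Itga2b rose against 8 weeks only (0.79), of 9 stromal markers 0 passed, and of 10 epithelial markers Foxa2 (1.54 and 1.72) and Cldn4 (1.13 and 1.07) rose. The part of these cells in the endothelial results was not tested.

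Over all lists, 38 genes that are not members gave 58 calls in the 2 comparisons. All 58 had the same sign in each set alone. They were chosen from the fit over both sets, so the shared sign is no separate support. Of the 58 calls, 29 held without each library in turn and 29 did not, 27 of them being lost without aged replicate 1 or 2, at adjusted p-values of up to 0.128. Cldn5, Icam1, Vegfb, Bmp6, Cxcl12, Reln, Pdpn, Mmrn1 and Foxa2 held in both comparisons on leaving out a library. The calls lost without 1 to 4 single libraries were 8, those of Flt4, Vcam1 and Cldn4 against 8 weeks, of Stab1, Plat and Smtn against 5 weeks and of Ramp2 in both. A further 21 were lost without 5 to 15, those of Vegfc, Cd34, Thbd and Ndrg1 in both comparisons, of Cdh2, Stab1, Lyve1, Itga2b and Csf1r against 8 weeks and of Jam2, Sox17, Lyl1, Klf2, Cxcr4, Lmod1, C1qa and Cldn4 against 5 weeks. In the later set alone 4 of the 58 were called, those of Foxa2 in both comparisons and of Reln and Pdpn against 5 weeks. With columns attached by file 32 were called. There Bmp6 lost both calls (adjusted p = 0.187 and 0.107, limma), and Vegfb (0.0570), Icam1 (0.0862) and Foxa2 (0.0527) lost theirs against 8 weeks, although all 4 had held on leaving out a library.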

How the data were processed

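The submitters deposited 1 table per sample in CPM, where the listed genes add up to the same total in every column. Per the labels' protocols, libraries were made with NEBNext Ultra and read as single 60 bp or paired 150 bp reads, with no assignment to libraries. Per the submitters' processing notes, fastp, STAR, featureCounts, edgeR and the build GRCm38 were used; versions, roles and strand setting are not given in the sources used here. Every value was a whole multiple of 1 read (tolerance 1e-06 of a read), from which read totals were recomputed. The lowest value listed is 10 reads in each library, so weaker genes are missing from the tables.

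Differences were fitted on log2(CPM + 1), which understates changes of low genes, with limma 3.58.1 (R 4.3.3; eBayes with trend) over all 12791 genes and 20 libraries, with age and set as terms, and over the 6 age-by-set means for differences between sets. P-values are two-sided, Benjamini-Hochberg adjusted over all genes, and called under 0.05. Set effects and age effects share libraries. Ratios used an exact permutation test within sets (SciPy 1.17.1, NumPy 2.4.6). The fit was tested on simulated data. Gene coordinates and exon lengths are from GENCODE M21 on GRCm38, in which 12767 identifiers were found and 24 were not.

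Groups follow the column headers. The 10 members are all named; in each list, the genes called in aged versus 8 or 5 weeks are named (of more than 6, the 6 with the smallest p against 8 weeks), and the 10 genes most alike by r. Members and lists were chosen with earlier results of these data known. The alternatives were other pseudocounts, a mean of at least 1 CPM, median centring, quantile normalization, array weights, no set term, each set alone, a replicate block, columns attached by file and leaving out each library. Leaving out the columns whose files belong to another age or set, and every alternative for the set term and its differences, were chosen after seeing the data. Whether numbers pair libraries was checked by the correlation of deviations from the group means.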

Additional observations from a re-analysis of the deposited data

Results flagged for a closer look

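Of 60 groups of library values checked for a sample far from the rest (Dixon's test, 95%), 4 stood out, where chance alone marks about 1 group in 20. Flt1 at 5 weeks was 32.9 CPM in 5w replicate 1, with the next library at 16.5 CPM. Vwf in aged uteri was 64.2 CPM in aged replicate 1, with the next at 36.8 CPM. Within the later set Vwf was 36.8 CPM in aged replicate 5, with the next at 27.0 CPM. Esam in the aged later libraries was 32.2 CPM in aged replicate 7, below the next at 61.1 CPM. Aged replicate 7 was also the lowest aged library for Pecam1 (52.7 CPM), Tek (14.8 CPM) and Emcn (19.5 CPM). Both 5w replicate 1 and aged replicate 1 belong to the earlier set.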

How the results depend on the processing

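The count tests planned were not run, because the tables hold CPM without genes under 10 reads. A minimum mean of 1 CPM removed no gene. Depth limits which genes are listed; the fewest reads of a member were 48. The causes of the changes below were not tested.

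Genes called between aged and 8-week uteri numbered 2196 over both sets, 183 in the later set alone, 3613 in the earlier alone, 969 without the set term, 5518 with array weights, 565 with columns attached by file and 1429 without the 4 columns whose files belong to another age or set. Against 5 weeks they numbered 2825, 523 in the later set alone, 1380 without the set term and 5136 with array weights. Leaving out each library gave 1309 to 2617 against 8 weeks and 1982 to 3294 against 5 weeks. Members called against 8 weeks were 4 in the earlier set alone, and 0 to 1 (Vwf, without 8w replicate 7, adjusted p = 0.0476) on leaving out a library. Against 5 weeks they were 3 in the earlier set alone and with array weights, 0 in the later set alone, without the set term, with columns by file and without the 2 or 4 mismatched columns, and 0 to 2 on leaving out a library.

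Between sets, members called were 1 with columns by file and 3 to 6 on leaving out a library, and all genes called 3403 with columns by file. Genes whose aged versus 8-week difference differed between sets numbered 3, and 16 at a pseudocount of 5 CPM, 45 with median centring, 64 with quantile normalization, 1086 with columns by file (2 of them members), 18 and 126 without the 2 or 4 mismatched columns and 0 to 49 on leaving out a library. For aged versus 5 weeks they numbered 0, and 1 at a pseudocount of 5 CPM, 1 with median centring, 6 with quantile normalization, 9 with array weights, 245 with columns by file, 1 and 13 without the mismatched columns and 0 to 14 on leaving out a library.

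For single genes the sign of a log2 difference turned in these cases. In the later set alone aged versus 8 weeks was -0.061 for Pecam1, -0.14 for Cdh5, -0.38 for Kdr, -0.17 for Tek and -0.025 for Emcn. Aged versus 5 weeks was -0.15 for Kdr there, and 8 versus 5 weeks -0.048 for Tie1. In the earlier set alone aged versus 8 weeks was 0.45 for Flt1 and 0.14 for Eng, and aged versus 5 weeks 0.60 for Cdh5 and -0.040 for Eng. There 8 versus 5 weeks was -0.23 for Pecam1, 0.058 for Cdh5, -0.29 for Kdr, -0.41 for Flt1, -0.024 for Tek, -0.18 for Eng, -0.19 for Vwf and -0.13 for Emcn. Array weights gave -0.34 for Cdh5 and -0.29 for Kdr against 8 weeks, -0.10 for Kdr and -0.15 for Flt1 against 5 weeks, 0.065 for Cdh5 between 8 and 5 weeks, 0.037 for Tie1 between sets and -0.073 for the set difference of Flt1 against 5 weeks. Without the set term, Flt1 and Eng were 0.024 and 0.018 against 8 weeks. With columns by file Cdh5 was 0.11 against 5 weeks, and the set difference of Eng against 8 weeks 0.11. Without the 4 mismatched columns, aged versus 8 weeks was -0.10 for Cdh5, -0.14 for Kdr, 0.16 for Flt1 and 0.040 for Eng, and the set difference of Flt1 against 5 weeks -0.36. Without the 2 of another age, Eng was 0.0025 against 8 weeks and Cdh5 0.026 against 5 weeks. A pseudocount of 5 CPM gave 0.011 for Flt1 against 8 weeks. Median centring gave -0.0024 for Pecam1 between 8 and 5 weeks and 0.042 for Kdr and 0.087 for Tie1 between sets. Quantile normalization gave -0.014 for Tie1 between 8 and 5 weeks and 0.032 between sets.

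Leaving out a library gave, against 8 weeks, -0.056 to 0.26 for Cdh5, -0.056 to 0.32 for Kdr, -0.18 to 0.12 for Flt1 and -0.11 to 0.079 for Eng, and against 5 weeks -0.24 to 0.11 for Cdh5. Between 8 and 5 weeks it gave -0.16 to 0.21 for Pecam1, -0.31 to 0.023 for Cdh5, -0.12 to 0.29 for Kdr, -0.043 to 0.35 for Tek, -0.15 to 0.22 for Tie1 and -0.080 to 0.44 for Emcn. The set difference ran from -1.34 to 0.018 for Flt1 against 8 weeks, and from -0.50 to 0.85 for Flt1 and -0.28 to 0.81 for Eng against 5 weeks.

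The log2 Flt1 to Kdr difference was 0.16 and 0.40 (aged versus 8 and 5 weeks) and the Tie1 to Tek difference 0.13 against 5 weeks in the later set alone, where Tie1 to Tek between 8 and 5 weeks was -0.32 with an unadjusted p of 0.0476 (exact permutation). Leaving out a library gave -0.40 to 0.15, -0.29 to 0.31 and -0.0058 to 0.23 for Flt1 to Kdr (aged versus 8, aged versus 5 and 8 versus 5 weeks) and -0.16 to 0.20, -0.27 to 0.053 and -0.25 to -0.066 for Tie1 to Tek.

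Deviations of same-numbered libraries had r from -0.51 to 0.28 (19 pairs, median 0.10), and those of different-numbered ones -0.51 to 0.79 (58 pairs, median -0.086). With 2 libraries per age in the earlier set, r values there mirror each other. The check therefore cannot exclude pairing. With the replicate block 1637 genes were called against 8 weeks and 2413 against 5 weeks, members called stayed at 0 and 1, Vwf against 5 weeks was 1.13 (adjusted p = 0.0412) and Eng against 8 weeks was 0.011.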
